A study of Homo sapiens with 12 samples.

Results

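The genes described here are 52 DNA repair genes, chosen by name, among 12085 genes with a retained intron or skipped exon in the event tables of this series. They cover homologous recombination, the Fanconi anaemia pathway, mismatch repair, nucleotide excision repair, base excision and single-strand break repair, non-homologous end joining, damage sensing and the checkpoint, and the replicative polymerases with DNA ligase 1. An event was listed for 51 of the 52, and only MDC1 had none. RNA-seq had been done on 293A-TOA cells, a derivative of the human embryonic kidney line HEK293, after 5 days of knockdown and with 1 μM TG (Thiamet-G, an inhibitor of the enzyme that removes O-GlcNAc from proteins) for the last 6 hr. All 4 groups received TG, and each had 3 libraries of polyA RNA: non-target siRNA (siNT), siRNA against the splicing factor SFSWAP (siSFSWAP, 40 nM of a mixture), siRNA against the nonsense-mediated decay helicase UPF1 at 30 nM (siNT/siUPF1), and both (siSFSWAP/siUPF1). The siNT and siSFSWAP libraries stand in one pair of tables and the UPF1 knockdown libraries in another, and both SFSWAP comparisons were made within a pair, so that they share no library.

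DNA repair is divided among pathways that recognise different lesions, and each pathway passes the DNA through recognition, incision or resection, synthesis and ligation. Base excision repair removes single damaged bases, nucleotide excision repair removes bulky adducts, mismatch repair corrects replication errors, the Fanconi anaemia pathway unhooks crosslinks, and breaks of both strands are repaired by homologous recombination or by end joining. A retained intron or a skipped exon can interrupt the reading frame of the enzyme they encode.

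An inclusion level is the percentage of transcripts that keep an intron or exon, computed from the reads of the inclusion form and of the skipping (spliced) form after division of each by its effective length. Only events that averaged 10 or more reads in a library, both forms together, were kept. For the DNA repair genes these were 64 of 96 retained introns and 922 of 1029 skipped exons in the tables without UPF1 knockdown, and 68 of 98 and 940 of 1094 in the tables with it. The retained introns next to this limit were in POLD1, at 13.5 reads per library, and XPC, at 9.83, both without UPF1 knockdown. Events with at least 10 reads of each form were tested by quasi-binomial regression, and an event is said to be called where the p adjusted by Benjamini-Hochberg over the events of all genes was at most 0.05. The size of a change is the log2 odds ratio of inclusion, knockdown against control, with its standard error (SE). Of the 52 genes, 17 had a called event in at least 1 of the SFSWAP comparisons, 31 were tested without a call, and 4 (ERCC5, XRCC4, LIG4 and MDC1) had no event that could be tested.

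SFSWAP reads at skipped exon events fell from 121 ± 6.65 (SD, n = 3) to 47.1 ± 11.1 per 1000000 with siSFSWAP, and from 72.4 ± 7.57 to 29.1 ± 9.99 in the UPF1 knockdown background. UPF1 reads were 0.202 times the level of siNT in siNT/siUPF1. The groups did not overlap in these comparisons, and each exact permutation p was 0.1, the smallest that 3 against 3 libraries can give. A library held between 25938092 and 40637076 reads at skipped exon events and between 1812794 and 3030493 at retained introns. Library 3 of siNT/siUPF1 and library 2 of siNT lay nearer to the SFSWAP knockdown than the other libraries of their groups: over 2011 exons of all genes that rose with siSFSWAP, the mean inclusion level, as a fraction, was 0.7 in the former, against 0.617 and 0.608 in the rest of its group, and 0.641 in the latter, against 0.569 and 0.561. Counts of calls, and named events whose call changes, are also given without them. The libraries are biological replicates, which the study defines as cells that had been passaged at separate times.

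The first comparison asked which introns of DNA repair genes depended on SFSWAP under TG. Retention fell at 6 introns in 5 genes and rose at none: POLD1, the catalytic subunit of DNA polymerase delta; FANCG, a subunit of the Fanconi anaemia core complex, at 2 introns; EME1, the partner of the MUS81 nuclease; NTHL1, the glycosylase of oxidised pyrimidines; and LIG1, the ligase that joins Okazaki fragments and repair patches. All 6 are coding introns between 85 and 227 nt long. The sequences of these introns, read from the GRCh38 reference on the strand of the gene, are shown because they are the RNA that was removed more often. Capitals mark the first 6 bases, at the 5′ splice site, and the last 20, which hold the polypyrimidine tract and the 3′ splice site. Introns and exons are numbered by the MANE transcripts of GENCODE.

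POLD1 intron 21 of 26, chr19:50415591-50415723, plus strand: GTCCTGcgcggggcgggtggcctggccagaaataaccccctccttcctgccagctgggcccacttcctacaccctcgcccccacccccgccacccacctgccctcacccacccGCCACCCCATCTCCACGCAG
FANCG intron 7 of 13, chr9:35076584-35076723, minus strand: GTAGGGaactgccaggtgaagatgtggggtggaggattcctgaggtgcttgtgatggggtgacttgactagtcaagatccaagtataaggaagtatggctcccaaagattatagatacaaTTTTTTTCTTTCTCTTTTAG
FANCG intron 5 of 13, chr9:35077102-35077263, minus strand: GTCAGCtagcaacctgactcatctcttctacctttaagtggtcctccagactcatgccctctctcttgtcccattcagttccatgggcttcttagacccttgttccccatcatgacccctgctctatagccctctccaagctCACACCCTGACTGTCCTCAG
EME1 intron 6 of 8, chr17:50379225-50379451, plus strand: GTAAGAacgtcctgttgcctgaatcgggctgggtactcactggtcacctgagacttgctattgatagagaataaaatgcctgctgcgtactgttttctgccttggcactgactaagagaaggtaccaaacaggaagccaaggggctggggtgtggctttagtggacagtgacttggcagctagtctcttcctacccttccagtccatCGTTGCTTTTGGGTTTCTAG
NTHL1 intron 5 of 5, chr16:2040048-2040132, minus strand: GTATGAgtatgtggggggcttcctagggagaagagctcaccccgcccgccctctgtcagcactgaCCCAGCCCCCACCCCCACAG
LIG1 intron 22 of 27, chr19:48123017-48123173, minus strand: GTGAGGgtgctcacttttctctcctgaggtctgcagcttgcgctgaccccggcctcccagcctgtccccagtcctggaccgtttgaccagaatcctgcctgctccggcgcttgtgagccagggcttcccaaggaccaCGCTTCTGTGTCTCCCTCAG

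The 6 introns differ widely in composition. The POLD1 intron has 72.2% GC and NTHL1 65.9%, whereas FANCG intron 7 has 42.9% GC and a 3′ end with 18 pyrimidines in its last 20 bases, the most of the 6. None of them opens with GTAAGT or GTGAGT at the 5′ splice site, read on the strand of the gene. Such a start was found at 13 of the 49 tested introns of these genes that were not called (26.5%) and at 23.5% of all introns tested. It was also found at 20.5% of the 532 introns of all genes called lower, so that introns called lower did not lack it in general. POLD1 opens with GTCCTG, FANCG intron 5 with GTCAGC, FANCG intron 7 with GTAGGG and EME1 with GTAAGA. When the reading frame of the upstream exon was continued into the retained intron, an in-frame TGA was met at base 15 of FANCG intron 5, base 49 of EME1, base 52 of FANCG intron 7 and base 84 of LIG1, and no in-frame stop codon was found in POLD1 or NTHL1.

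Retention of POLD1 intron 21 was 69.8%, 37.7% and 65.8% in the 3 siNT libraries and 6.76%, 16.5% and 28.8% in the siSFSWAP libraries. The means were 57.8% ± 17.5 (SD, n = 3) and 17.4% ± 11, the groups did not overlap, and the log2 odds ratio was -2.80 (SE 0.65, adjusted p = 0.00247). In siNT libraries 1 and 3 most POLD1 transcripts that covered this intron had kept it, and in every siSFSWAP library most had spliced it. In FANCG, intron 7 was retained at 46.8%, 38.9% and 40.8% with siNT and at 15%, 6.46% and 13.4% with siSFSWAP (log2 odds ratio -2.36, SE 0.57, adjusted p = 0.00436). FANCG intron 5 fell from 27.5%, 14.6% and 27.5% to 3.59%, 3.94% and 12.3% (log2 odds ratio -2.14, SE 0.67, adjusted p = 0.0308). Both FANCG introns lie on either side of exons 6 and 7, which return below.

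EME1 intron 6 was retained at 26.9%, 14.6% and 22.5% in siNT and at 3.87%, 10.2% and 8.32% in siSFSWAP cells, with a log2 odds ratio of -1.59 (SE 0.44, adjusted p = 0.015). NTHL1 intron 5 was at 13.5%, 5.73% and 12.6% and then at 3.41%, 3.73% and 3.83% (log2 odds ratio -1.65, SE 0.52, adjusted p = 0.0259). LIG1 intron 22 was the least retained of the 6, at 8.93%, 4.4% and 9.65% in siNT and 1.95%, 3.23% and 2.83% in siSFSWAP libraries (log2 odds ratio -1.46, SE 0.46, adjusted p = 0.0398). In all 6 introns the lowest siNT library lay above the highest siSFSWAP library, and in all 6 the lowest siNT library was library 2.

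**Figure D1:**
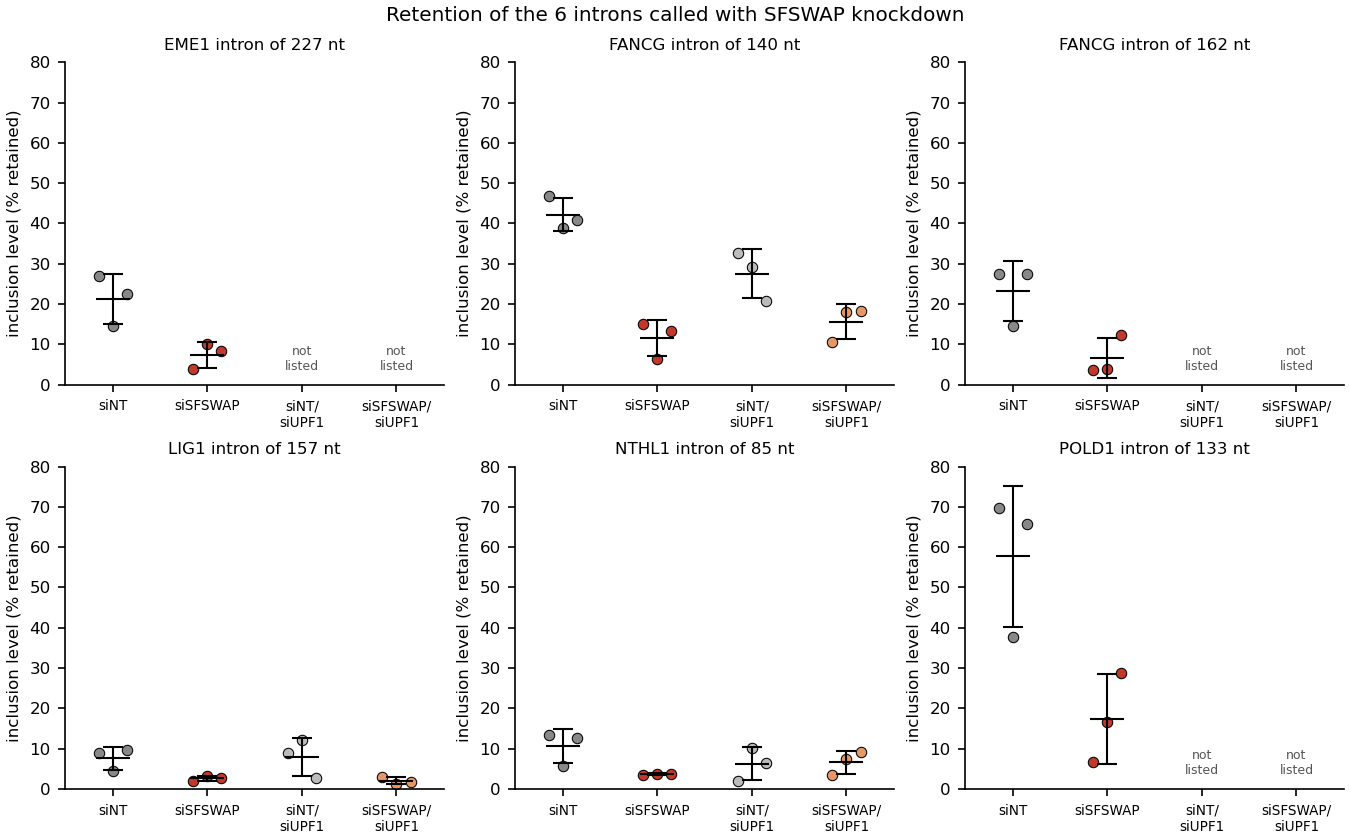
Percentage of transcripts that retain each of the 6 called introns (y axis) in the 4 groups (x axis), with 1 point per library and the mean ± SD as bars; introns absent from the UPF1 knockdown tables are marked as not listed. The siNT points lie above the siSFSWAP points in every panel, from 57.8% against 17.4% on average in POLD1 to 7.66% against 2.67% in LIG1.

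The reads of each form were counted apart, per 1000000 reads at retained intron events. Spliced reads were higher in siSFSWAP than in siNT without overlap at 5 of the 6 introns, by 3.63 times at FANCG intron 7, 3.39 times at POLD1, 2.31 times at LIG1 and 2.12 times at both EME1 and FANCG intron 5. Reads of the retained form were 0.474 times the siNT level at POLD1 and 0.316 times at NTHL1, without overlap, and overlapped at the other introns, where the ratio ran from 0.473 to 0.832. NTHL1 was the one intron whose spliced reads were alike, at 41.7 in siNT and 42.5 in siSFSWAP, with overlapping libraries.

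The 6 called introns were 10.9% of the 55 introns tested in 27 of these genes, and the background over the 5845 introns of all genes was 9.10% called lower and 1.33% called higher. The groups did not overlap at 14 of the 55 (25.5%), against 24.6% of all introns. The median log2 odds ratio was -0.45 for the DNA repair introns and -0.25 for all introns, and 38 of the 55 were negative (69.1%, against 63.2% of all). Among 103 further DNA repair genes that are not in the set, 93 introns were tested, of which 7 fell and 1 rose. The share called among the DNA repair introns was thus close to that of all genes.

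Just outside the threshold were DDB2 intron 5, the damage recognition gene of nucleotide excision repair, at 51.0%, 24.2% and 27.7% with siNT and 13%, 17.6% and 17.2% with siSFSWAP (adjusted p = 0.0531), and single introns of ERCC2 (adjusted p = 0.0716), MUTYH (0.0864) and POLD1 (0.118), all 4 lower in every siSFSWAP library than in any siNT library. The ERCC2 intron was at 100% in every siNT library, with no spliced read. It passed the read filter only through siSFSWAP and is no support for a direction. These 4 were chosen after their values were seen.

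The 6 calls varied in firmness. POLD1 and FANCG intron 7 stayed called when any 1 of the 6 libraries was left out, with adjusted p of at most 0.0382 and 0.0253. EME1 was lost without siNT library 3 (adjusted p = 0.122) or siSFSWAP library 1 (0.0959). The other introns lost the call in 4 or 5 of the 6 cases, with adjusted p up to 0.184 for NTHL1, 0.231 for FANCG intron 5 and 0.203 for LIG1. The count of called introns was 10 without siNT library 2 (9 lower and 1 higher), 3 without siNT library 1 or siSFSWAP library 2, and 2 without siNT library 3 or siSFSWAP library 1. With limma on the log2 odds, none of these 6 introns and none of the 5845 introns of all genes was called.

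Skipped exons moved in both directions under TG. Of 333 exon events tested in 44 of the genes, 21 were called higher (6.31%) and 11 lower (3.3%), in 10 genes, and over the 33839 events of all genes 7.76% were called higher and 4.21% lower. The groups did not overlap at 111 of the 333 events (33.3%), against 26.0% of all, and the median log2 odds ratio was 0.72, against 0.26 for all events. By pathway, 15 of the 16 calls in nucleotide excision repair (50 tested) were higher, 9 in ERCC1 and the rest in ERCC2, ERCC3 and DDB2. The ERCC3 call and the 1 lower call, in DDB2, passed the read filter only through siSFSWAP and are no support for a direction. The 5 calls in end joining (34 tested) were higher, all in POLM and on 1 junction. In base excision repair (46 tested) 5 of 6 calls were lower, in POLB, with 1 higher in MUTYH. The 4 calls in the Fanconi anaemia pathway (FANCI and FANCL, 62 tested) and the 1 in the checkpoint (CHEK1, 49 tested) were lower. The FANCL calls and the POLB calls other than exon 2 also passed the read filter only through siSFSWAP, with 0 to 4 skipping reads in siNT. FANCI had 7 skipping reads in siNT, under the minimum of 10, and 55 in siSFSWAP. The lower calls of base excision repair thus rest on POLB exon 2. The POLM, ERCC2 and MUTYH calls reached the minimum through siNT, with 7, 7 and 2 skipping reads in siSFSWAP. No exon event was called in homologous recombination (42 tested), mismatch repair (13) or the replicative group (37).

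**Figure D2:**
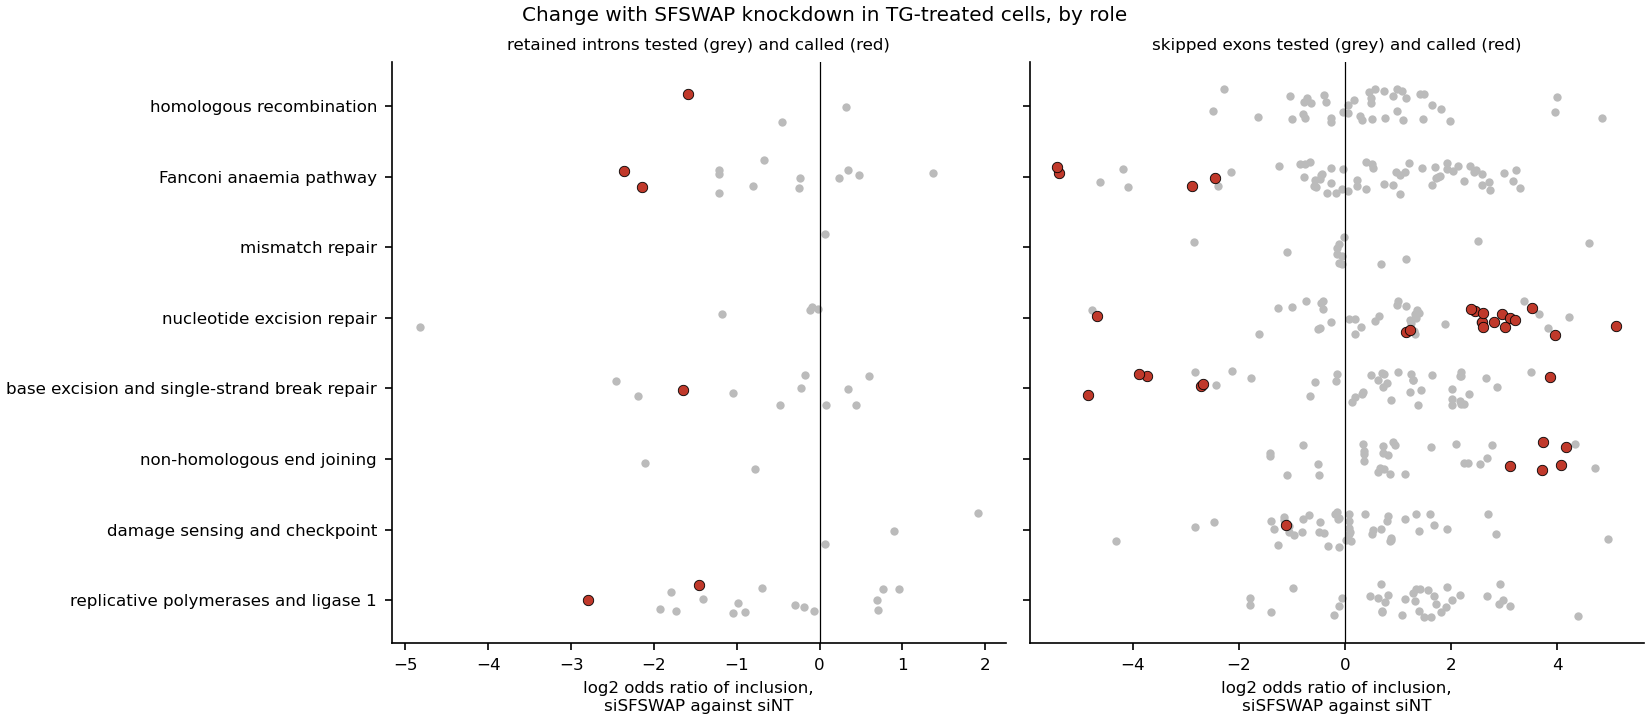
Log2 odds ratio of inclusion (x axis), siSFSWAP against siNT, for every tested retained intron (left) and skipped exon (right) of the DNA repair genes, in rows by role, with 1 point per event and called events in red. The 6 called introns lie below 0, and the called exons of nucleotide excision repair and end joining lie above 0 with 1 exception in DDB2.

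One gene can have several events that share a skipping junction, so these calls are not independent. The 32 called events rest on 19 skipping junctions in 10 genes. Of the 11 junctions that lost reads relative to inclusion, 8 jump over 2 or more exons of the MANE transcript, 2 over 1 exon and 1 over none. Of the 8 junctions behind the exons called lower, 2 jump over 2 or more exons and 6 over 1.

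The sequences of 6 of the exons are given next, since they are the parts of the coding sequence whose presence in the transcript changed. Capitals mark the exon, and the lower case letters are the last 10 bases of the intron before it and the first 6 of the intron after it, from the GRCh38 reference on the strand of the gene.

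ERCC1 exon 8 of 10, chr19:45413963-45414034, minus strand: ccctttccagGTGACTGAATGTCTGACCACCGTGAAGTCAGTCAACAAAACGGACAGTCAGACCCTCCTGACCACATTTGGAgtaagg
ERCC2 exon 8 of 23, chr19:45364424-45364547, minus strand: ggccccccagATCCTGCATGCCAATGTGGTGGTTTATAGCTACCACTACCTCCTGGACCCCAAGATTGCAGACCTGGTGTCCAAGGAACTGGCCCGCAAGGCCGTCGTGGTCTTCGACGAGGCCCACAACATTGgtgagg
DDB2 exon 4 of 10, chr11:47232814-47232959, plus strand: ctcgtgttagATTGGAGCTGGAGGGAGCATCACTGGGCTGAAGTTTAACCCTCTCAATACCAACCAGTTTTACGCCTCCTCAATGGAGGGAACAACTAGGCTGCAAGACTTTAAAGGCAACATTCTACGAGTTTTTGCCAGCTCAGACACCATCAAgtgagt
POLM exon 6 of 11, chr7:44076509-44076629, minus strand: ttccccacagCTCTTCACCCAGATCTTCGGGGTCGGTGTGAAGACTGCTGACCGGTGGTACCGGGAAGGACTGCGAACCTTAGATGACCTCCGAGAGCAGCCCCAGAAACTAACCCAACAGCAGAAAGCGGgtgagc
FANCG exon 6 of 14, chr9:35076971-35077101, minus strand: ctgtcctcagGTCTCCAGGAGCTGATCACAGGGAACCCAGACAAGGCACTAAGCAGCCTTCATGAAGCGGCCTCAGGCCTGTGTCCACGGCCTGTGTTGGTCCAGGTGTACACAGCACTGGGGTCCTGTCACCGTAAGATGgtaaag
FANCI exon 32 of 38, chr15:89306007-89306194, plus strand: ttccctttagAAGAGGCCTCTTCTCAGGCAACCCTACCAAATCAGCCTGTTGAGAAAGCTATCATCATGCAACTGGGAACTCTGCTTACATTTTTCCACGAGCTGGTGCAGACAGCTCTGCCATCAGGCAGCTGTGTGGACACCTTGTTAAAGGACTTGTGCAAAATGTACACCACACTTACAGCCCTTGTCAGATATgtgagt

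ERCC1, which forms the nuclease that cuts beside a bulky lesion together with ERCC4, had 9 exon events called higher. Exon 8, of 72 nt, is skipped by a junction from exon 7 to exon 9. It was included at 43.8%, 57.7% and 33.9% with siNT and at 76.6%, 82.9% and 85.0% with siSFSWAP, a log2 odds ratio of 2.44 (SE 0.30, adjusted p = 2.17e-10). Loss of these 72 nt removes whole codons and keeps the frame. A longer form of the same exon, of 128 nt, begins upstream and is not in GENCODE: it rose from 17.1%, 28.1% and 15% to 44.1%, 61.5% and 60.5% (log2 odds ratio 2.38, SE 0.33, adjusted p = 2.24e-08). Against the junction from exon 6 to exon 9, which also removes exon 7, exon 8 went from 49.9%, 86.9% and 71% to 94.0%, 97.8% and 100% (log2 odds ratio 3.96, SE 1.07, adjusted p = 0.000263). The remaining 6 ERCC1 events concern exons 4, 5, 7 and 9, with adjusted p from 0.00157 to 0.0255, so that skipping fell along much of the gene. At 1 of the 6, exon 5 against the junction from exon 4 to exon 6, the groups overlapped.

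DDB2 binds ultraviolet photoproducts and starts nucleotide excision repair on chromatin. Its exon 4, of 146 nt, was measured against a junction from exon 3 to exon 8 that leaves out 4 exons, 567 nt in all. Inclusion was 45.3%, 55.9% and 65.9% in siNT libraries and 95.2%, 87.4% and 90.8% in siSFSWAP libraries (log2 odds ratio 3.10, SE 0.48, adjusted p = 1.53e-07). A 206-nt form of exon 4 that is not in GENCODE moved likewise, from 26.7%, 44.8% and 46.8% to 90.0%, 76.2% and 84.5% (log2 odds ratio 2.96, SE 0.50, adjusted p = 1.37e-06). Exon 7 was also called higher. A 46-nt exon 9 went the other way: no skipping read was found among 416 reads in siNT, which allows a skipping level of up to 1.05%, and inclusion in siSFSWAP was 94.5%, 97.5% and 94.2% (adjusted p = 0.0414). Such limits are the level that 3 reads would give after division by effective length, and cover counting error only. The call was kept in 1 of the 6 cases with a library left out, with adjusted p up to 0.131 without siNT library 2.

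The helicase ERCC2 unwinds DNA around the lesion as part of TFIIH. Its exon 8, measured against a junction from exon 5 to exon 9, was included at 43.0%, 67.4% and 48.4% in siNT and at 100%, 89.0% and 88.1% in siSFSWAP cells (log2 odds ratio 3.52, SE 0.93, adjusted p = 0.000686). Exon 6, which the same junction removes, was called too (adjusted p = 0.00196). In ERCC3, the other helicase of TFIIH, a 119-nt exon within an intron had no inclusion read in siNT (0 of 675 reads, which allows an inclusion level of up to 0.201%) and was at 0.461%, 1.59% and 1.35% with siSFSWAP (adjusted p = 0.0328). It passed the filter of 10 inclusion reads only through siSFSWAP, where it is high, so that its call is no support for a direction, and it was lost without any 1 siNT library (adjusted p up to 0.106).

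POLM encodes DNA polymerase mu, which fills gaps during end joining. All of its 5 called events share a junction from exon 5 to exon 9 that removes 3 exons, with 89 reads over the siNT libraries and 7 over the siSFSWAP libraries. A 267-nt form over exon 8 that is not in GENCODE went from 10.3%, 14.9% and 22.0% to 88.7%, 60.9% and 80.7% (log2 odds ratio 4.07, SE 0.92, adjusted p = 2.59e-05). Exon 6 went from 5.17%, 5.03% and 18.4% to 75.9%, 50.3% and 74.5% (log2 odds ratio 4.17, SE 1.07, adjusted p = 0.00094), and the 90-nt form of exon 8 had an adjusted p of 0.000648. Against these 3 forms, the junction was the main form in every siNT library and the minor one in every siSFSWAP library. Against the other 2 called forms it stayed the main one in some siSFSWAP libraries: exon 7 was included at 77.3%, 17.6% and 63.1%, and a 247-nt form at 46.2%, 33.4% and 56.3%. Exon 7 lost its call without siNT library 1, siSFSWAP library 1 or siSFSWAP library 3 (adjusted p up to 0.213).

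The largest fall in percentage points among the called exons was in POLB, the polymerase that fills the single-base gap of base excision repair. Its exon 2 of 14, 58 nt long at chr8:42339012-42339069 on the plus strand, was included at 59.9%, 63.5% and 79.7% with siNT and at 20.4%, 28.9% and 26.2% with siSFSWAP. The log2 odds ratio was -2.71 (SE 0.32, adjusted p = 1.43e-10), the lowest adjusted p of any event of these genes. Skipping of 58 nt shifts the reading frame. Another 4 calls in POLB were lower too and concern exons 4 and 5, whose inclusion was 63.5% or more in each siSFSWAP library. These calls passed the read filter only through siSFSWAP, with 0 to 4 skipping reads over the siNT libraries, and are no support for a direction.

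In the Fanconi anaemia pathway, exon 32 of FANCI, the partner of FANCD2 in the clamp that closes on DNA, was included at 95.8%, 96.9% and 100% with siNT and 81.6%, 89.2% and 85.9% with siSFSWAP (log2 odds ratio -2.89, SE 0.87, adjusted p = 0.00218). Exon 4 of FANCL, the ubiquitin ligase of the core complex, showed no skipping among 287 siNT reads, which allows a skipping level of up to 1.62%, and was included at 86.1%, 94.0% and 89.8% with siSFSWAP (adjusted p = 0.00888). Exon 3 of CHEK1, a checkpoint kinase, was at 85.7%, 92.5% and 95.7% and then at 79.3%, 85.0% and 87.9%, with overlapping groups (adjusted p = 0.0411). MUTYH exon 5, of the glycosylase that removes adenine opposite oxidised guanine, was at 42.4%, 100% and 47.3% with siNT, where library 2 stood with the siSFSWAP libraries at 100%, 100% and 90.4% (adjusted p = 0.0368). Without siNT library 2 its adjusted p was 0.0118, and it was lost without any 1 siSFSWAP library (adjusted p up to 0.124). CHEK1 exon 3 was lost in 4 of 6 cases, with adjusted p up to 0.348 without siNT library 3. The values of FANCI, FANCL, CHEK1, MUTYH and ERCC3 and of DDB2 exon 9 were chosen for the text after they were seen.

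Mismatch repair had no call. Its event with the lowest adjusted p under TG was a 97-nt exon within an intron of MSH3, which pairs with another MutS protein to recognise loops. It had no inclusion reads in siNT and was included at 3.61%, 6.31% and 6.23% in siSFSWAP libraries (adjusted p = 0.0769), and it too passed the filter only through siSFSWAP. This exon is not in GENCODE, and with limma its adjusted p was 0.0423. In the UPF1 knockdown background the lowest adjusted p was 0.0528 for an exon of MSH6 and 0.0562 for an exon of PMS2.

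**Figure D3:**
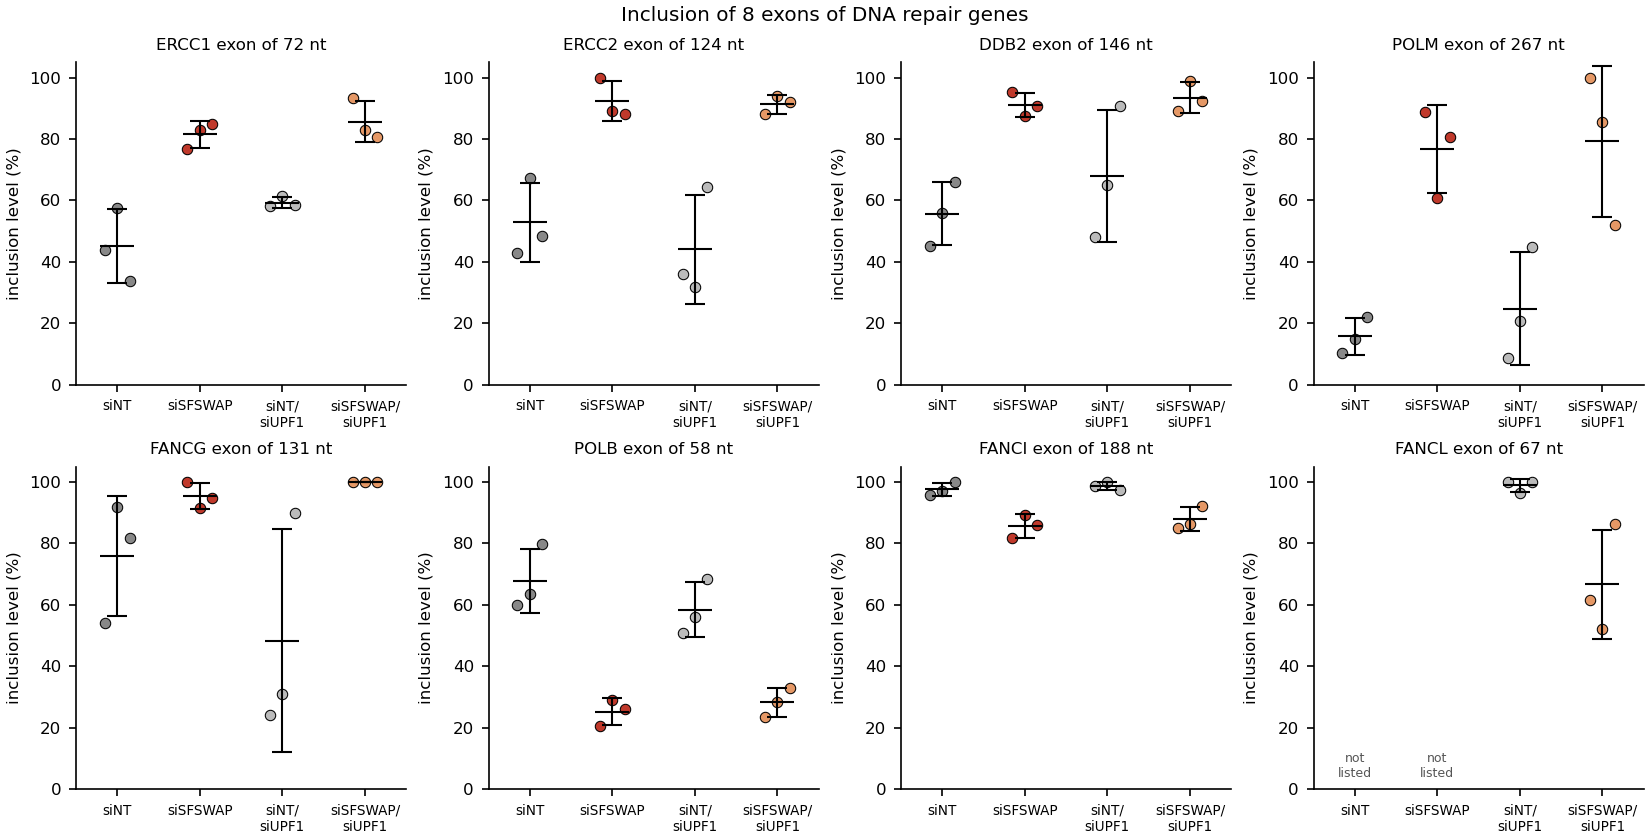
Inclusion level in percent (y axis) of 1 exon in each of 8 DNA repair genes in the 4 groups (x axis), with 1 point per library and the mean ± SD as bars; each exon is the called event of its gene with the lowest adjusted p. The mean is higher with SFSWAP knockdown in ERCC1, ERCC2, DDB2, POLM and FANCG and lower in POLB, FANCI and FANCL, with overlapping libraries for FANCG without UPF1 knockdown and for DDB2 with it; the FANCL form of 67 nt is listed with UPF1 knockdown alone.

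With limma on the log2 odds, 17 of the exon events were called instead of 32, among them DDB2 exon 4 and 3 of the POLM events named above, and 523 fell and 716 rose over all genes. Leaving out siSFSWAP library 2 left 20 calls, and 16 of the 32 events stayed called whichever library was left out, among them POLB exon 2, ERCC1 exon 8, DDB2 exon 4, ERCC2 exons 6 and 8, POLM exon 6, FANCI exon 32 and FANCL exon 4. A form had 0 reads over a whole group at 5 of the 32, FANCL exon 4 among them, and these reached the minimum of 10 reads of that form through the other group. With each event's own dispersion, not moderated across events, no intron or exon of these genes was called in either SFSWAP comparison, and 9 of the 55 introns and 73 of the 333 exons had an unadjusted p under 0.05 under TG.

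The comparison of siSFSWAP/siUPF1 with siNT/siUPF1 asked whether the same events changed when nonsense-mediated decay was reduced. Retained introns gave no call among the 48 tested, against 2.59% lower and 0.979% higher over the 5105 introns of all genes, and 8 had an unadjusted p under 0.05. The groups did not overlap at 8 (16.7%, against 18.1% of all), and the median log2 odds ratio was -0.08. Limma made no call among them either. Leaving out siNT/siUPF1 library 3 gave 2 calls, and leaving out siSFSWAP/siUPF1 library 3 gave 1.

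Of the 6 introns called without UPF1 knockdown, 3 could be tested here. LIG1 intron 22 was at 8.82%, 12.2% and 2.84% in siNT/siUPF1 and at 2.95%, 1.25% and 1.8% in siSFSWAP/siUPF1, which overlapped by library 3 of siNT/siUPF1 (log2 odds ratio -1.98, SE 0.65, adjusted p = 0.0667). FANCG intron 7 was at 32.6%, 29.3% and 20.7% and then at 10.7%, 18% and 18.2%, without overlap (log2 odds ratio -0.96, SE 0.54, adjusted p = 0.425). NTHL1 intron 5 was at 2.07%, 10.2% and 6.41% and then at 3.41%, 7.38% and 9.06%, a log2 odds ratio of 0.04 (SE 0.59, adjusted p = 0.984). The difference between the effects in the 2 backgrounds was 1.41 for FANCG intron 7 (95% interval from -0.01 to 2.82), 1.69 for NTHL1 (from 0.20 to 3.19) and -0.52 for LIG1 (from -2.11 to 1.08) on the log2 scale, with adjusted p of at least 0.957, so that a loss of the effect was not shown. The POLD1, EME1 and FANCG intron 5 events were not listed in the UPF1 knockdown table.

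Skipped exons were called at 19 events higher (5.37%) and 11 lower (3.11%) of 354 tested, in 12 genes, against 4.05% higher and 3.47% lower among 34006 events of all genes. The groups did not overlap at 99 events (28%, against 21.6% of all), and the median log2 odds ratio was 0.52 (0.07 over all events). FANCG and FANCA joined the genes with exons called higher, and CHEK2 those called lower. The Fanconi anaemia pathway had 5 calls lower and 7 higher, and base excision repair 4 lower and 4 higher, so that neither had a shared direction here. The 7 calls in nucleotide excision repair and the 1 in end joining were higher, and the 2 in the checkpoint were lower. Several of these calls passed the read filter only through 1 group and are no support for a direction. In siNT/siUPF1 the skipping reads were 0 at CHEK1, 7 at CHEK2 and FANCI, 1 at FANCL and 0 at 2 POLB calls. In siSFSWAP/siUPF1 they were 0 at FANCG, 0 or 1 at MUTYH and 0 at an ERCC2 call. The 30 called events rest on 18 skipping junctions.

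FANCG gave the lowest adjusted p in this background. Its exon 6 was included at 24%, 30.8% and 90.0% in siNT/siUPF1 and at 100% in each siSFSWAP/siUPF1 library, with 0 of 139 reads on the skipping junction from exon 5 to exon 8, which allows a skipping level of up to 4.77% (adjusted p = 3.21e-05). A 110-nt form over exon 7, measured against the same junction, was at 27.5%, 32.1% and 92.7% and then at 100% (0 of 91 reads, up to 6.51%, adjusted p = 0.000547), and exon 9 was at 72.9%, 19.9% and 47.2% and then at 100% (0 of 44, up to 10.3%, adjusted p = 0.00334). All of these FANCG events reached the minimum of 10 skipping reads only through siNT/siUPF1, so that their calls are no support for a direction. The call of exon 9 was lost without siNT/siUPF1 library 2 (adjusted p = 0.0936) or siSFSWAP/siUPF1 library 2 (0.0757). The log2 odds ratios were 7.66 (SE 3.42) for exon 6, 6.91 (SE 3.46) for the 110-nt form and 6.61 (SE 3.41) for exon 9. Their sizes are thus poorly determined, and the 95% interval of exon 9, from -0.07 to 13.28, included 0. Library 3 of siNT/siUPF1 lay near the knockdown at exon 6 but not at exon 9. Without UPF1 knockdown exon 6 was at 54.2%, 91.8% and 81.6% in siNT and at 100%, 91.5% and 94.6% in siSFSWAP, where it was not called. The junction that skips exons 6 and 7 joins the far ends of introns 5 and 7, the 2 introns printed above, so that retention of these introns and skipping of the exons between them were both called lower with SFSWAP knockdown, the former without UPF1 knockdown and the latter with it. The latter rests on the calls that passed the filter only through siNT/siUPF1.

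POLB exon 2 was called again, from 50.8%, 56.1% and 68.4% to 23.4%, 28.4% and 32.8% (log2 odds ratio -1.78, SE 0.34, adjusted p = 6.59e-05). ERCC1 exon 8 went from 58.2%, 61.3% and 58.4% to 93.2%, 83.0% and 80.6% (log2 odds ratio 1.87, SE 0.38, adjusted p = 0.000147), and a 437-nt form of it from 14.5%, 15.2% and 17.6% to 68.6%, 37.1% and 37.4% (log2 odds ratio 1.98, SE 0.43, adjusted p = 0.000363). POLB exon 2 and ERCC1 exon 8 moved in the same directions as without UPF1 knockdown, in other libraries, and the 437-nt form is not listed there.

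ERCC2 exon 8 was at 35.9%, 31.8% and 64.5% and then at 88.0%, 93.9% and 92.0% (log2 odds ratio 3.96, SE 1.01, adjusted p = 0.000146), and ERCC2 exon 6 at 65.4%, 39.1% and 75.2% and then at 91.5%, 93.5% and 94.5% (log2 odds ratio 3.27, SE 1.02, adjusted p = 0.00286). FANCI exon 32 fell from 98.7%, 100% and 97.3% to 85.1%, 86.3% and 92.3% (log2 odds ratio -3.34, SE 0.94, adjusted p = 0.00156), and its 185-nt form from 91.8%, 100% and 83.2% to 52.4%, 47.8% and 68.7% (log2 odds ratio -3.26, SE 0.97, adjusted p = 0.00394). The 2 FANCI forms differ by 3 nt at the 3′ splice site and share 1 skipping junction. ERCC2 exon 6 was lost without siNT/siUPF1 library 2 (adjusted p = 0.0683) or siSFSWAP/siUPF1 library 3 (0.0568), and the 185-nt FANCI form without siNT/siUPF1 library 2 (0.0891) or siSFSWAP/siUPF1 library 2 (0.0625).

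The other genes with calls here were FANCL (3 lower), FANCA (4 higher), MUTYH (4 higher), DDB2 (2 higher), POLM (1 higher), CHEK1 (1 lower) and CHEK2 (1 lower), with 3 further calls in POLB and 1 in ERCC2. FANCA is a subunit of the core complex, and its exon 40 was at 62.4%, 67.7% and 91.3% and then at 95.1%, 98.3% and 95.2% (adjusted p = 0.0268). CHEK2 exon 10, of the kinase that ATM activates, was at 100%, 90.5% and 96.4% and then at 85.3%, 71.7% and 82.9% (adjusted p = 0.0465). MUTYH rested on few reads: one siSFSWAP/siUPF1 library had none at 1 of its called events. The FANCA call against this junction and the CHEK2 call each held in 1 of 6 cases with a library left out, for FANCA without siNT/siUPF1 library 3 and for CHEK2 without siNT/siUPF1 library 2. The FANCA and CHEK2 values were chosen after they were seen.

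At the called exons of FANCA, FANCG, DDB2, POLM and ERCC2, library 3 of siNT/siUPF1 had the highest inclusion of its group, with FANCG exon 9 as an exception. Without that library 42 exon events of these genes were called, and without library 2 of siSFSWAP/siUPF1 only 10 were. Leaving out any of the other libraries gave from 17 to 19 calls, and 7 of the 30 events stayed called whichever library was left out, among them exon 6 of FANCG, POLB exon 2, ERCC1 exon 8, ERCC2 exon 8 and FANCI exon 32. A form had 0 reads over a whole group at 9 of the 30, FANCG exon 6 among them, and reached the minimum of 10 reads through the other group. Limma made no call among these exons, and 10 lower and 7 higher calls over all genes.

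Because the comparisons share no library, the events tested in both can be set side by side. Of 235 exon events of these genes tested in both, 166 had the same direction (70.6%, against 67.8% of the exons of all genes), and Pearson's r over the events was 0.67 (0.59 for all), a description since events of 1 gene share reads. Of the 32 exon events called without UPF1 knockdown, 27 were tested in both and 24 of these had the same direction (2732 of 2891 over all genes). All 23 of the events called with UPF1 knockdown that were tested without it had the same direction (1873 of 2013 over all genes). Events called in both numbered 11, which is 34.4% of the former and 36.7% of the latter calls, against 28.8% and 45.6% over all genes. All 11 had the same direction, as had 1161 of 1167 over all genes. Among the 11, the FANCL, FANCI, MUTYH, POLM and ERCC2 events passed the filter of skipping reads only through the group with more skipping, in both comparisons. Their shared direction is therefore no support for a repeated change. The POLB, ERCC1 and DDB2 events among the 11 passed it in each group. The counts of called events before these include events with the same limit. Among 39 introns tested in both, 28 had the same direction (71.8%, against 64.9% of all), with r = 0.53.

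**Figure D4:**
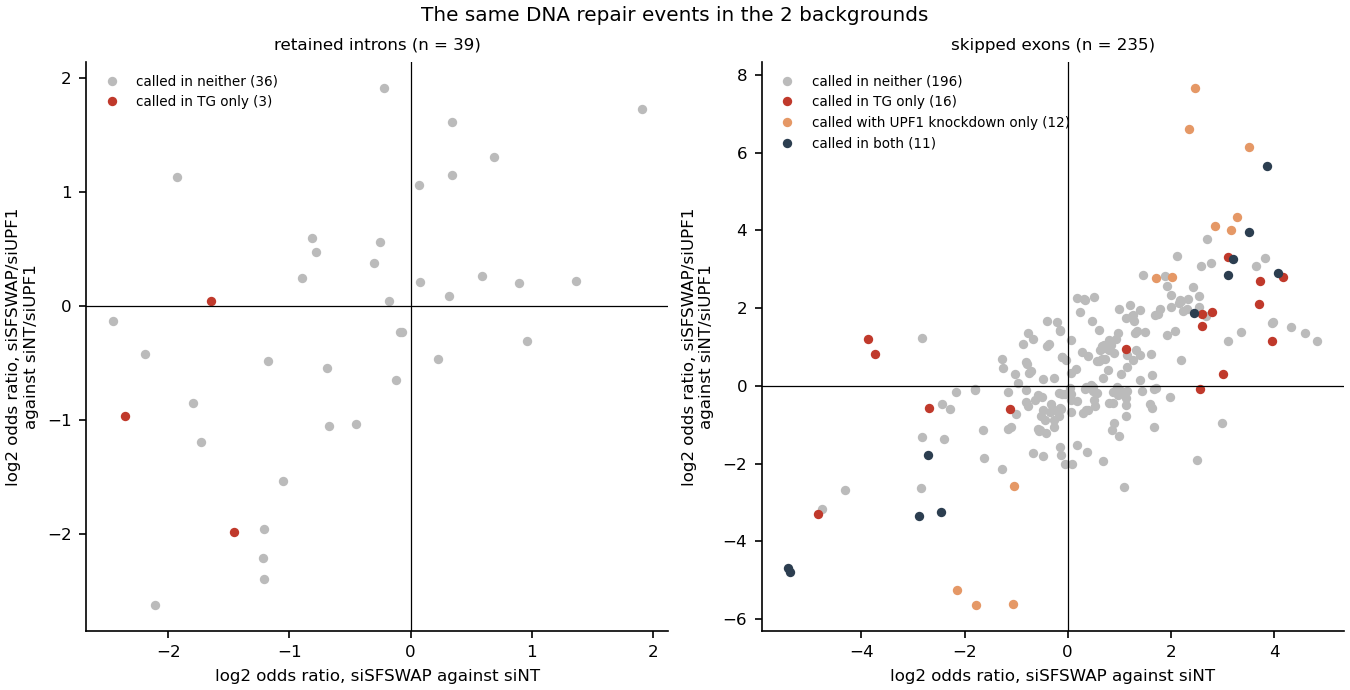
Log2 odds ratio of siSFSWAP/siUPF1 against siNT/siUPF1 (y axis) plotted against that of siSFSWAP against siNT (x axis) for the 39 introns (left) and 235 exons (right) of DNA repair genes tested in both, with 1 point per event, coloured by where it was called. The 11 exons called in both lie in the lower left and upper right quadrants.

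UPF1 knockdown by itself was compared between libraries of the same SFSWAP siRNA, across the 2 pairs of tables, at events listed in both. No event of a DNA repair gene was called. In siNT cells 38 introns and 300 exons were tested (1 and 29 with an unadjusted p under 0.05), against 0.0495% and 1.17% called over all genes. In siSFSWAP cells 42 introns and 251 exons were tested (2 and 5 with an unadjusted p under 0.05), against 0.225% and 0.0816%. The difference between the SFSWAP effects in the 2 backgrounds was not called at any of 42 introns or 409 exons (2 and 10 with an unadjusted p under 0.05), against 0.0221% and 0.00771% over all genes. By limma, no event of these genes was called for UPF1 knockdown in either case. For POLB exon 2 this difference was 0.93 on the log2 scale (95% interval from 0.03 to 1.83, adjusted p = 0.994), and for ERCC1 exon 8 it was -0.57 (from -1.55 to 0.41, adjusted p = 0.994). The intervals allow differences of a size near that of many of the effects described above.

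Exons called in opposite directions lay in introns of different base composition. GC content of the introns on either side had a median of 38.1% for the 11 exon events called lower under TG, 54.5% for the 21 called higher and 45% for the 301 not called, and the exons had medians of 40.4%, 57.9% and 50.5%. Below 45% GC in the flanking introns, a limit chosen after the data were seen, 10 events of 161 were called lower and 1 higher, and at 45% or more 1 of 172 was called lower and 20 higher. Over all genes 5.52% and 2.47% were called lower and higher below this limit, and 2.53% and 14.5% above it. In the UPF1 knockdown background 11 were lower and none higher of 184 below the limit, and none lower and 19 higher of 170 above it, against 4.38% and 1.27% and against 2.01% and 8.57% over all genes. These counts are a description. Many of the calls reached 10 reads of a form only through 1 group, among them those of FANCL, FANCI and FANCG and several of POLB. Spearman's rho between flanking GC content and log2 odds ratio was 0.52 over 333 events under TG (0.31 over all genes) and 0.53 over 354 in the UPF1 knockdown background (0.32 over all genes), as a description, since events of 1 gene share introns and libraries. Among the exons called under TG, the flanking GC content was 32.7% in FANCL, 41.1% to 41.2% in FANCI and 37.4% to 44% in POLB, and 49.5% to 55.8% in ERCC1 and 54.5% to 55% in POLM.

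**Figure D5:**
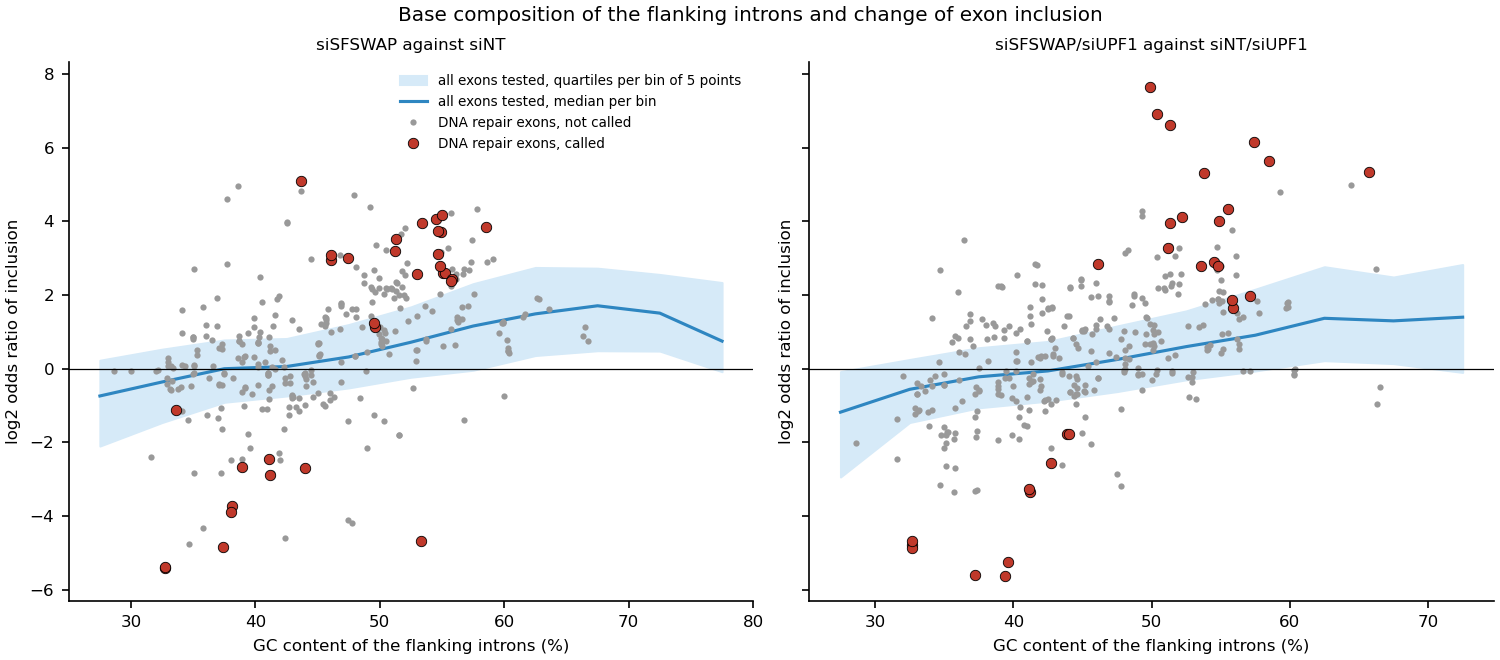
Log2 odds ratio of exon inclusion (y axis) against the GC content of the flanking introns in percent (x axis), for siSFSWAP against siNT (left) and in the UPF1 knockdown background (right). Points are exon events of DNA repair genes, called ones in red, and the line and band are the median and quartiles of all exons tested in bins of 5 points; called exons below 0 lie mostly under 45% GC, and those above 0 mostly over it.

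Reads at skipped exon events of a gene, per 1000000 such reads, give a rough measure of how much of its transcript was sequenced, since they rise when an exon is included more often too. In bulk RNA, fewer cells with a transcript and less of it per cell cannot be told apart. Under TG, 15 of 49 DNA repair genes with enough reads did not overlap between siSFSWAP and siNT, against 33.2% of 8172 genes. DDB2 stood at 34.7, 49.9 and 20.4 in siNT and at 87.8, 102 and 67 in siSFSWAP, a ratio of 2.44. LIG1 (2.32), POLD1 (2.27), FANCG (1.88) and XRCC1 (1.88), the scaffold of single-strand break repair, were also higher without overlap, so that 3 of the 5 genes with a called intron are among them. EME1 (1.56) and NTHL1 (1.01) overlapped. Genes without a called intron, such as FANCA (1.44), LIG3 (1.5) and PARP1 (1.28), were higher without overlap too. POLM was lower, at 13.5, 12.4 and 11 and then at 7.67, 6.58 and 10.7 (ratio 0.676), as was ERCC3 (0.807). In the UPF1 knockdown background 9 of 49 did not overlap, against 21.2% of all genes, with DDB2 again the highest ratio (1.66) and FANCC the lowest (0.695). LIG1 (1.36), POLD1 (1.39) and FANCG (1.06) overlapped there.

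The 31 genes tested without a call were BRCA1, BRCA2, RAD51C, RAD51D, XRCC2 and XRCC3 of homologous recombination; FANCC and FANCD2; MSH3, MSH6 and PMS2 of mismatch repair; ERCC4, ERCC8 and XPC of nucleotide excision repair; OGG1, UNG, APEX1, XRCC1, LIG3, PARP1 and PARP2 of base excision and single-strand break repair; XRCC5, XRCC6 and POLL of end joining; ATM, ATR, TP53BP1, NBN, MRE11A and RAD50 of damage sensing; and POLE. The number of events tested differed: RAD51C had 15 exon events tested under TG and POLL 16, whereas PARP1 and XRCC1 had none. PARP1 had 16 exon events with enough reads in all and XRCC1 8, but none passed the minimum of 10 reads of each form. A change in their exon inclusion was therefore not tested there. In the further 103 DNA repair genes, 19 exon events were called lower and 20 higher of 390 under TG, and 9 lower and 22 higher of 467 in the UPF1 knockdown background.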

How the data were processed

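RNA-seq libraries of polyA RNA were made from 293A-TOA cells in 4 groups of 3. The deposited event tables hold, per retained intron or skipped exon, raw counts of inclusion and skipping reads that the authors obtained with rMATS (junction and exon-body reads), after cutadapt 1.9.1 and STAR 2.7 on GRCh38.p8 as the submitters' processing notes name them, with RefSeq genes plus predicted decoy exons. Counts were not normalised, and the 3 libraries of a group are joined in 1 cell without replicate numbers. Which column set is siNT was taken from the study's definition of its difference, and checked by the SFSWAP reads. The authors' inclusion fractions, differences, p-values and FDR columns were not used.

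Inclusion levels were recomputed from the deposited counts and effective lengths. Events with a mean of 10 reads per library and at least 10 reads of each form were fitted by quasi-binomial regression, with the dispersion moderated across events by limma 3.58.1 in R 4.3.3, floored at 1, an F test and Benjamini-Hochberg adjustment over the events of all genes. Log2 odds ratios had 0.5 added to each form. The difference between backgrounds was a Wald test in a fit of all 4 groups. Introns were matched between tables by intron coordinates and exons by the whole event. Features were computed with Python 3.11.15, and the fit was tested on simulated data.

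The genes and lists were chosen with earlier results of these data known. Values are given for events that were called without overlap of the groups, at most the 10 with the lowest adjusted p per comparison and event type, and for the event with the lowest adjusted p under TG of a pathway without a call. Other settings were a stricter and a looser read filter, limma on log2 odds with 0.5 added, a trended or unshared dispersion, a minimum difference, 1 event per exon, and each library left out. Total reads per library limit precision, and without molecular identifiers limits for 0 counts (the level that 3 reads would give) cover counting error only.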

Additional observations from a re-analysis of the deposited data

How the results depend on the processing

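No paired analysis was possible because the places of the 3 counts in a cell carry no replicate number. Calls depended on how the spread was estimated. For retained introns under TG, 6 were called, against 0 with limma on log2 odds, 0 with the dispersion of each event alone and 2 when a difference of at least 0.2 in inclusion level (as a fraction) was also required. For skipped exons under TG, 32 were called, against 17 with limma, 0 with the dispersion of each event alone and 18 with the minimum difference. In the UPF1 knockdown background the 30 exon calls became 0 with limma and 0 with the dispersion of each event alone, and the 0 intron calls became 1 with a trended dispersion prior. With 1 library left out, the counts ran from 2 to 10 and from 20 to 35 for introns and exons under TG, and from 0 to 2 and from 10 to 42 in the UPF1 knockdown background. Exons called for UPF1 knockdown in siNT cells ran from 0 to 3. Leaving out a library also leaves fewer samples. No named event reversed its direction under any setting run. Introns with few reads, such as POLD1 intron 21 with 92 retained and 32 spliced reads over the siNT libraries, limit what could be called.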
